A study of Mus musculus with 8 samples.

Results

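Glycolysis and the response to low oxygen were followed through 35 listed genes in mouse CD8 T cells given o-phosphoethanolamine (pEtn), the phosphorylated form of ethanolamine used in phospholipid synthesis. The members were taken by symbol from the deposited count table, where all 35 were found among 45232 genes, and each had at least 1 count. They cover glucose transporters (2 genes), upper glycolysis from hexokinase to triose phosphate isomerase (10), lower glycolysis to pyruvate kinase (5), pyruvate and lactate handling (5), oxygen sensing (3) and targets of hypoxia-inducible factor (10). The cells came from OT-I mice, whose transgenic T cell receptor recognises an ovalbumin peptide, and had been activated with that peptide. The pEtn group (4 libraries) grew for 5 days with IL-2 in RPMI with 10% fetal bovine serum plus 470 µM pEtn, and the RPMI group (4 libraries) grew in the same medium with IL-2 but no added pEtn. The comparison asks how added pEtn changes transcript levels. The labels used here give neither the age of the mice nor the oxygen tension of the cultures. They do not state that each numbered library is a separate mouse or culture, so p-values measure only the spread between these libraries, which may be technical.

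Glycolysis turns glucose into pyruvate, and activated T cells send much of that pyruvate on to lactate even where oxygen is present. Hypoxia-inducible factor joins an oxygen-labile alpha subunit to a stable partner and raises genes of glucose uptake, glycolysis, lactate release, angiogenesis and mitophagy. With oxygen present, prolyl hydroxylases mark the alpha subunit for destruction, and in T cells receptor and cytokine signals also raise its level.

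Total counts ran from 29223765 to 35504571 per pEtn library and from 31280997 to 34474420 per RPMI library. The CD8 T cell markers Cd8a, Cd8b1, Cd3d, Cd3e and Cd3g were present in all libraries, with summed levels of 1344 to 1849 CPM (counts scaled by library size) with pEtn and 1233 to 1570 CPM in RPMI. With all libraries and no block, none was called by edgeR, DESeq2 or limma (Cd8b1 was under 0.05 by unadjusted p). With the replicate number as a block, edgeR called Cd8b1 higher, at 246 CPM with pEtn and 179 CPM in RPMI (adjusted p = 0.00447). Without the block, Cd8b1 was called higher in 1 of the 8 fits that left out 1 library, that without RPMI replicate 1 (edgeR adjusted p = 0.0224). Cd4 averaged 0.124 CPM with pEtn and 0.317 CPM in RPMI. With all libraries and no block, the lineage factor Zbtb7b was the 1 marker of another cell type called, at 32.2 CPM with pEtn and 20.1 CPM in RPMI (edgeR adjusted p = 0.0262). It lost the call in 5 of the 8 fits that left out 1 library, those without pEtn replicate 1, 2 or 4 or RPMI replicate 3 or 4 (adjusted p 0.0515 to 0.0792). Ms4a1, Adgre1 and Clec9a, defining genes of B cells, macrophages and a dendritic cell subset, had no count. Summed levels with pEtn were 0 to 0.185 CPM for B cells, 5.94 to 33.8 CPM for NK cells, 4.34 to 12.1 CPM for myeloid cells, 6.46 to 21.9 CPM for dendritic cells and 0.0346 to 0.127 CPM for red cells. In RPMI they were 0.0314 to 0.293, 16.1 to 31.5, 2.26 to 8.48, 13.4 to 32.7 and 0.0650 to 0.381 CPM for the same lists. Over all libraries together, Ncr1 had 6 counts, Lyz2 5, Csf1r 3 and Flt3 4. The NK sums were thus almost all Klrb1c, the myeloid sums Cd68 and Itgam, and the dendritic cell sums Xcr1. With the block, the myeloid marker Cd68 was called higher, at 6.96 CPM with pEtn and 4.15 CPM in RPMI (adjusted p = 0.0115), and the dendritic cell marker Xcr1 lower, at 11.1 CPM with pEtn and 20.01 CPM in RPMI (adjusted p = 0.000821). Without the block, Xcr1 was called lower in 1 of the 8 fits that left out 1 library (edgeR adjusted p = 0.0382). Mitochondrially encoded genes took 2.62% to 2.91% of counts with pEtn and 1.46% to 2.47% in RPMI, with no overlap, and the nuclear RNAs Malat1 and Neat1 summed to 26.2 to 58.0 CPM with pEtn and 10.6 to 51.1 CPM in RPMI, and Neat1 was called higher with the block (adjusted p = 0.0427, and 0.763 without). The part of these shifts in the results on glycolysis was not tested, and in bulk RNA fewer cells of a type and less RNA per cell cannot be told apart.

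Hk1, a hexokinase that traps glucose in the cell as glucose phosphate, was 1.57-fold higher with pEtn. Slc16a1, which carries lactate and pyruvate with a proton across the plasma membrane, was 1.78-fold lower, and Vegfa, the angiogenic growth factor and a classical hypoxia target, was 2.10-fold lower. These were the 3 called genes (adjusted p under 0.05) of 34 tested, or 8.82%, beside 12.8% of the 11862 genes tested in all. In the higher direction 1 member was called beside 5.22% of all genes, and in the lower direction 2 members beside 7.56%. These shares were not above those of all genes. The median log2 fold change of the members, pEtn over RPMI, was 0.03 (18 above 0 and 16 below), against 0.02 over all genes tested, and 28 of the 34 lay within 0.5 of 0 on the log2 scale, as did 79.1% of all genes. The standard errors of the 31 members not called ran from 0.087 to 0.59 on the log2 scale, so a missed call does not show that the levels were equal.

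**Figure D1:**
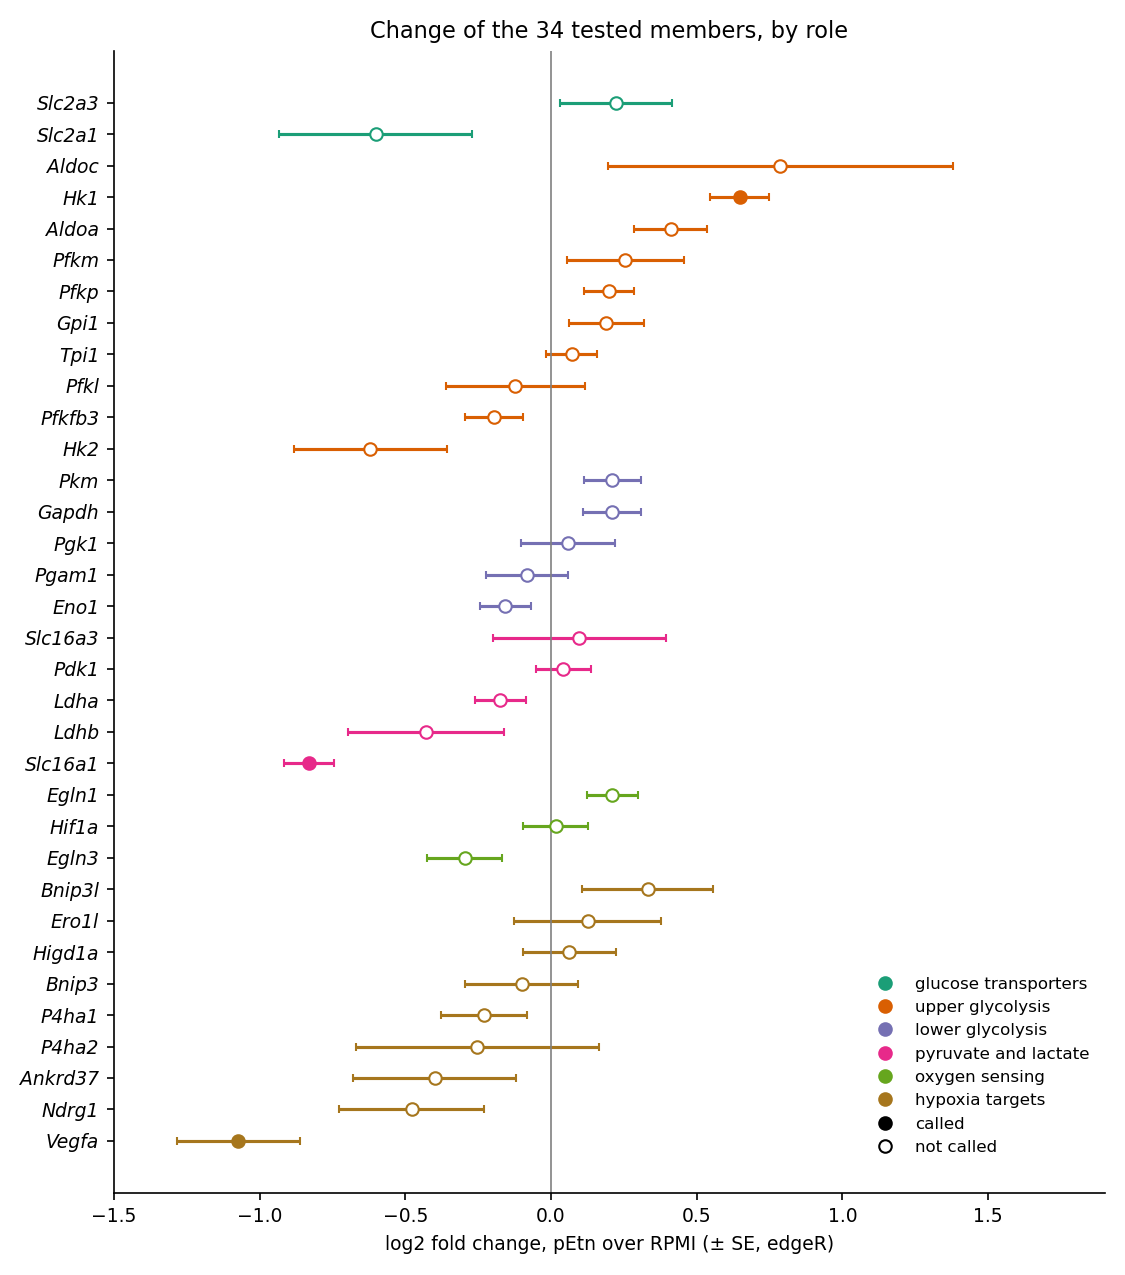
Log2 fold change, pEtn over RPMI, of the 34 tested members, grouped by role from top to bottom, with bars for ± 1 SE from edgeR (n = 4 libraries per medium) and filled points for called members. Hk1 lies at 0.65, Slc16a1 at -0.83 and Vegfa at -1.07, and the open points spread on both sides of 0.

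Hk1 (ENSMUSG00000037012) had 272, 306, 268 and 284 CPM in pEtn replicates 1 to 4, against 213, 171, 169.8 and 168 CPM in RPMI replicates 1 to 4. Every pEtn library was above every RPMI library, and RPMI replicate 1 lay nearest to the pEtn values. The means were 283 ± 17.1 CPM with pEtn and 180.5 ± 21.7 CPM in RPMI (SD, n = 4 each), a log2 fold change of 0.65 (SE 0.10, edgeR adjusted p = 0.00413). The call held in all 8 fits that left out 1 library (adjusted p 0.00324 to 0.0187).

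Slc16a1 (ENSMUSG00000032902) had 109.7, 123, 116 and 113 CPM in pEtn replicates 1 to 4, against 187, 212, 217 and 203 CPM in RPMI replicates 1 to 4. The media were far apart and each held a narrow range. Means were 115 ± 5.52 CPM with pEtn and 205 ± 13.4 CPM in RPMI (SD, n = 4 each), and Slc16a1 fell by 0.83 on the log2 scale (SE 0.085, edgeR adjusted p = 0.000832). Within replicate numbers 1 to 4 the log2 differences were -0.77, -0.79, -0.91 and -0.85, the closest agreement between numbers among the 3 called members.

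Vegfa (ENSMUSG00000023951) had 12.6, 13.4, 7.74 and 9.08 CPM in pEtn replicates 1 to 4, against 16.6, 21.5, 26.5 and 25.4 CPM in RPMI replicates 1 to 4. All pEtn libraries were lower, but the gap was wider in numbers 3 and 4 than in numbers 1 and 2. Vegfa averaged 10.7 ± 2.71 CPM with pEtn and 22.5 ± 4.48 CPM in RPMI (SD, n = 4 each), and it fell by 1.07 on the log2 scale (SE 0.21, edgeR adjusted p = 0.0109). The log2 differences were -0.40, -0.68, -1.78 and -1.49 within numbers 1 to 4. With the resembling replicates 3 and 4 of each medium summed into 1 library, the call was lost without the replicate number as a block (adjusted p = 0.0840) and held with it (adjusted p = 0.0372).

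**Figure D2:**
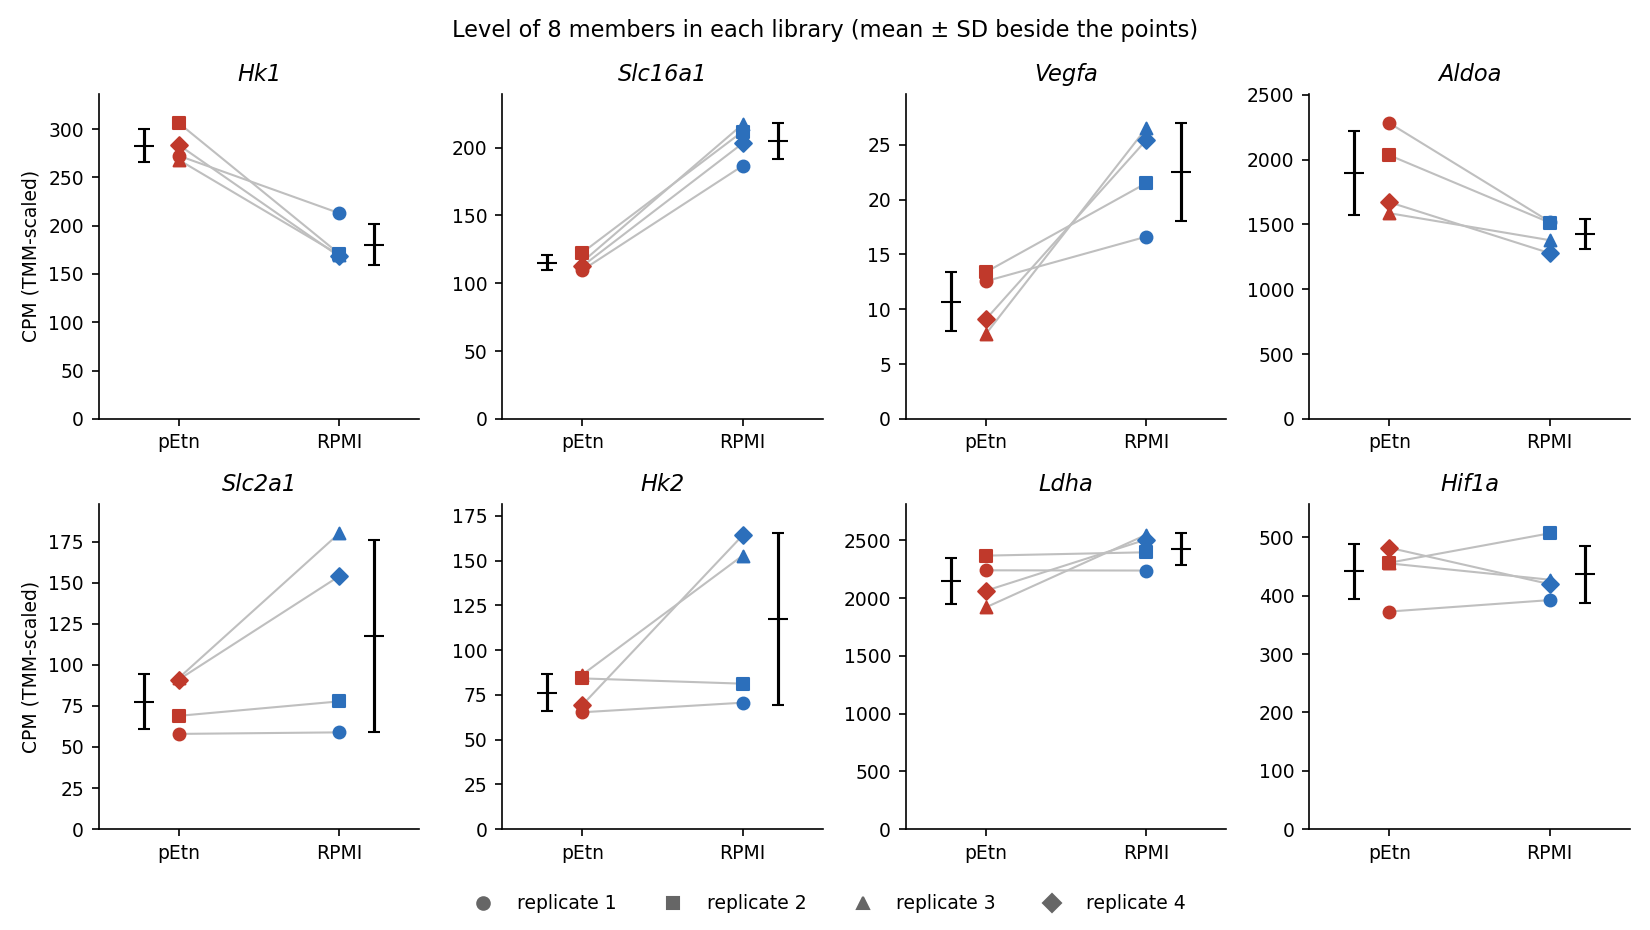
Level in CPM on library sizes scaled by TMM (vertical axis) in the pEtn libraries (red, left) and the RPMI libraries (blue, right) for 8 members, with marker shapes for replicate numbers, grey lines joining equal numbers and black bars for the mean ± SD (n = 4). Hk1, Slc16a1, Vegfa and Aldoa do not overlap between the media, whereas Slc2a1 and Hk2 separate in numbers 3 and 4 and lie close together in numbers 1 and 2.

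The bases before the start sites of the called genes, and of Ldha as a member whose hypoxia response is classical, are shown because hypoxia-inducible factor binds the core letters ACGTG or GCGTG, which lie in promoters of many glycolytic genes. Each line gives the 250 bases before a RefSeq start on build GRCm38.p6, 5′ to 3′ on the gene's strand, with every match to ACGTG or GCGTG on either strand in capitals. The windows are Slc16a1 at chr3:104638414-104638663 (plus strand), Hk1 at its upstream start at chr10:62379909-62380158 and at a downstream start at chr10:62340422-62340671 (both minus strand), Vegfa at chr17:46032378-46032627 (minus strand) and Ldha at chr7:46845554-46845803 (plus strand).
Slc16a1: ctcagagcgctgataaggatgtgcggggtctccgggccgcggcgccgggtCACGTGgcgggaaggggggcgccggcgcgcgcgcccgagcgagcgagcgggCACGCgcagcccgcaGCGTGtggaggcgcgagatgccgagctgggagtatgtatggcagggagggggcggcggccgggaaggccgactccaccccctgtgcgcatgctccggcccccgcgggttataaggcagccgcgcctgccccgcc
Hk1, upstream start: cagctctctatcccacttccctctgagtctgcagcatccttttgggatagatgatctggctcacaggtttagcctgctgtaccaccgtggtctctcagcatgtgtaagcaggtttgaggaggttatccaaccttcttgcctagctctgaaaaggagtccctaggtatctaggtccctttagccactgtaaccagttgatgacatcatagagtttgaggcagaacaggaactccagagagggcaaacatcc
Hk1, downstream start: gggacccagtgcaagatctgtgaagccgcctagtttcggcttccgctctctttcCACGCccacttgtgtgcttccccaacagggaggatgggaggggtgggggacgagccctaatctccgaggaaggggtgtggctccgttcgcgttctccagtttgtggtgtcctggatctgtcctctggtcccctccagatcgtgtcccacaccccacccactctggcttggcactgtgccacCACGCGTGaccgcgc
Vegfa: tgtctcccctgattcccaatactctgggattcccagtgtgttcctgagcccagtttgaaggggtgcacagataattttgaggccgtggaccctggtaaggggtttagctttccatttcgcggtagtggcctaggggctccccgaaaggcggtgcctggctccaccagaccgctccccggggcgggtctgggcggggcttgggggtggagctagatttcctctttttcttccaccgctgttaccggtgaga
Ldha: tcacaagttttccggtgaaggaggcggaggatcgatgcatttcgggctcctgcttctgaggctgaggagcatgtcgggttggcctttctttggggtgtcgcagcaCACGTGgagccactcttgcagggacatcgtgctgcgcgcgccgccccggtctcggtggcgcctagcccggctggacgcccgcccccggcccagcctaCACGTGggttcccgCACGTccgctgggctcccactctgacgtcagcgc
Slc16a1 held 4 matches before its start, a pair of which make up the palindrome CACGTG, the E box bound by Myc and related factors, which reads as a match on both strands. Ldha, which was not called, held 5, with CACGTG at -145 and -48 from the start. Hk1 had 3 matches before the downstream start and none before the upstream one, and gene counts do not tell which start was used. Vegfa had none here, and its known hypoxia response element lies further upstream than this window. RefSeq gives a second, downstream start for Vegfa and for Ldha, not printed here, with 2 matches before that of Vegfa, at -218 and -211, and 1 before that of Ldha, at -59. Matched by symbol, or for Ero1l by its synonym Ero1a, 32 of the 35 members had at least 1 RefSeq window (250 bases before to 50 after a start), all but Slc2a3, Bnip3l and Ndrg1. Of these, 30 (93.8%) held ACGTG or GCGTG on either strand in some window, against 46.7% of 27025 genes with a window, and 6 (18.8%) held CACGTG, against 8.09%. A gene with several windows had more places for a match. Counted by window, 38 of 46 windows of members (82.6%) held ACGTG or GCGTG, against 43.8% of 32851 windows of all genes. The windows of members were also richer in G and C, with a median of 64.0% against 52.7% over all windows, so these shares describe letters and not sites in use.

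Glucose enters T cells mainly through the transporters Slc2a1 and Slc2a3. Slc2a1 (ENSMUSG00000028645) had 58.0, 69.0, 92.0 and 91.1 CPM in pEtn replicates 1 to 4, against 58.9, 77.7, 180.0 and 154 CPM in RPMI replicates 1 to 4. The media were close in numbers 1 and 2 and apart in numbers 3 and 4, and their ranges overlapped. Its log2 fold change was -0.60 (SE 0.33, edgeR adjusted p = 0.269). Slc2a3 had 254, 238, 139 and 168 CPM in pEtn replicates 1 to 4, against 149, 206, 165 and 165 CPM in RPMI replicates 1 to 4, with log2 differences of 0.77, 0.21, -0.25 and 0.03 within numbers 1 to 4 (adjusted p = 0.492). Neither transporter was called by edgeR, DESeq2 or limma, and neither was under 0.05 by edgeR's unadjusted p.

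Among the 15 genes of upper and lower glycolysis, Hk1 was the 1 called (6.67%, beside 12.8% of all genes). The median log2 fold change of the 15 was 0.19, with 10 above 0 and 5 below, and 8 were higher with pEtn in all 4 replicate numbers. These were Hk1, Gpi1, Pfkp, Pfkm, Aldoa, Aldoc, Gapdh and Pkm. The share of all genes higher in all 4 numbers was not counted. Hk2 (ENSMUSG00000000628), the hexokinase that growth signals and hypoxia induce, had 65.3, 84.2, 86.3 and 69.3 CPM in pEtn replicates 1 to 4, against 70.6, 81.3, 153 and 164 CPM in RPMI replicates 1 to 4. It shared the pattern of Slc2a1, with a gap in numbers 3 and 4 alone, and was not called (log2 fold change -0.62, SE 0.26, edgeR adjusted p = 0.157).

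Aldoa (ENSMUSG00000030695), the aldolase that splits the phosphorylated hexose into trioses, had 2282, 2034, 1587 and 1672 CPM in pEtn replicates 1 to 4, against 1522, 1515, 1379 and 1279 CPM in RPMI replicates 1 to 4. Its media did not overlap, but the lowest pEtn value was close to the highest RPMI value, and edgeR missed the threshold (log2 fold change 0.41, SE 0.12, adjusted p = 0.0583). It passed in DESeq2 (adjusted p = 0.0308), without pEtn replicate 3 (edgeR adjusted p = 0.0451) and with the replicate number as a block (edgeR adjusted p = 0.00780). Aldoc, the aldolase typical of brain and induced by hypoxia in other cells, had 169, 111, 30.1 and 36.8 CPM in pEtn replicates 1 to 4, against 78.3, 73.4, 23.8 and 25.5 CPM in RPMI replicates 1 to 4. The spread between numbers was larger than the gap between media, so that the call was missed without the block (adjusted p = 0.425) and made with it (adjusted p = 0.00491).

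The other members of upper glycolysis were closer between media. Gpi1, which isomerises glucose phosphate, averaged 955 ± 127 CPM with pEtn and 837 ± 124 CPM in RPMI (SD, n = 4 each). Of the phosphofructokinase subunits, Pfkp averaged 507 ± 23.4 CPM with pEtn and 442 ± 37.4 CPM in RPMI, Pfkl 88.5 ± 19.6 CPM with pEtn and 96.4 ± 32.1 CPM in RPMI, and Pfkm 13.6 ± 2.46 CPM with pEtn and 11.4 ± 2.78 CPM in RPMI (SD, n = 4 each). Pfkfb3, whose product activates phosphofructokinase, averaged 33.9 ± 2.43 CPM with pEtn and 38.8 ± 3.19 CPM in RPMI. Tpi1, the triose phosphate isomerase, averaged 849.6 ± 56.7 CPM with pEtn and 809 ± 63.5 CPM in RPMI. The edgeR adjusted p-values of these 6 genes ran from 0.167 for Pfkp to 0.785 for Pfkl.

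Of the 5 members of lower glycolysis, 0 were called by edgeR, DESeq2 or limma, and 0 were under 0.05 by edgeR's unadjusted p. Gapdh and Pkm were higher with pEtn in 4 of 4 replicate numbers without passing the test. Gapdh, the dehydrogenase that yields NADH, averaged 1459 ± 156 CPM with pEtn and 1263 ± 107 CPM in RPMI (SD, n = 4 each, adjusted p = 0.203). Pkm, the pyruvate kinase, averaged 2766 ± 338 CPM with pEtn and 2391 ± 108 CPM in RPMI (SD, n = 4 each, adjusted p = 0.187). Eno1, the enolase, averaged 2622 ± 225 CPM with pEtn and 2923 ± 199 CPM in RPMI (adjusted p = 0.279). The phosphoglycerate kinase Pgk1 and mutase Pgam1 differed in opposite directions between the numbers, with log2 differences of 0.46, 0.23, -0.34 and -0.27 for Pgk1 and 0.19, 0.29, -0.40 and -0.33 for Pgam1. Reads of close copies could be shared, and the counts of Pgk1-rs7 came to 1.65% of those of Pgk1, those of Eno1b to 0.0845% of Eno1 and those of the antisense gene Hk1os to 0.318% of Hk1.

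Lactate is made by lactate dehydrogenase and leaves with protons through Slc16a1 and Slc16a3. Ldha (ENSMUSG00000063229), the subunit that dominates in activated T cells, had 2240, 2367, 1919 and 2063 CPM in pEtn replicates 1 to 4, against 2238, 2396, 2547 and 2506 CPM in RPMI replicates 1 to 4. The media were level in numbers 1 and 2, and pEtn was lower in numbers 3 and 4 (log2 fold change -0.17, SE 0.088, edgeR adjusted p = 0.230). Ldhb stood at 1.71 ± 0.536 CPM with pEtn and 2.30 ± 0.397 CPM in RPMI (SD, n = 4 each, adjusted p = 0.334). Slc16a3, the lactate exporter that hypoxia induces, had 71.5, 90.4, 84.3 and 101 CPM in pEtn replicates 1 to 4, against 54.0, 43.6, 121 and 106 CPM in RPMI replicates 1 to 4. The pEtn libraries lay inside the RPMI range, and no call was made (log2 fold change 0.10, SE 0.30, edgeR adjusted p = 0.866). Pdk1 (ENSMUSG00000006494), the kinase that shuts pyruvate dehydrogenase, had 122, 110.1, 106 and 131 CPM in pEtn replicates 1 to 4, against 111, 109.7, 115 and 120.1 CPM in RPMI replicates 1 to 4, and the ranges overlapped (log2 fold change 0.04, SE 0.093, edgeR adjusted p = 0.809).

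Oxygen sensing was covered by the alpha subunit Hif1a and the prolyl hydroxylases Egln1 and Egln3, and none of the 3 was called by edgeR, DESeq2 or limma. Egln1 and Egln3 (2 of 3) were under 0.05 by edgeR's unadjusted p, beside 3375 of the 11862 genes tested. Hif1a (ENSMUSG00000021109) had 373, 456, 455 and 482 CPM in pEtn replicates 1 to 4, against 392.4, 507, 427 and 419.8 CPM in RPMI replicates 1 to 4. The ranges overlapped, with a log2 fold change of 0.02 (SE 0.11, edgeR adjusted p = 0.941). Egln1, the main sensor in most cells, averaged 118 ± 5.31 CPM with pEtn and 102 ± 7.55 CPM in RPMI, and its media did not overlap, although the lowest pEtn library was at 112 CPM and the highest RPMI library at 110.4 CPM (SD, n = 4 each, adjusted p = 0.146). Egln3, itself a hypoxia target, averaged 36.1 ± 5.63 CPM with pEtn and 44.3 ± 4.12 CPM in RPMI (SD, n = 4 each), lower with pEtn in 4 of 4 numbers (edgeR adjusted p = 0.163, 0.0314 with the block, and 0.127 when the block was kept and replicates 3 and 4 were summed). The protein of Hif1a is set mainly by its breakdown, which these counts do not measure.

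Of the 10 hypoxia targets, 9 were tested, and Vegfa was called (11.1%, beside 12.8% of all genes). With the block, 3 of the 9 were called, 1 higher and 2 lower, beside 32.3% of all genes. The median log2 fold change of the 9 was -0.23, with 3 above 0 and 6 below. Ndrg1, a stress-induced gene, had 45.2, 54.6, 28.96 and 31.0 CPM in pEtn replicates 1 to 4, against 68.7, 70.3, 42.0 and 41.6 CPM in RPMI replicates 1 to 4. It was lower with pEtn within every number, while numbers 1 and 2 stood above 3 and 4 in both media, and edgeR called it with the block (adjusted p = 0.00242) and not without (adjusted p = 0.245). Bnip3l, a mitophagy receptor, averaged 156 ± 43.5 CPM with pEtn and 124 ± 32.1 CPM in RPMI (SD, n = 4 each), higher in 4 of 4 numbers (edgeR adjusted p = 0.375, 0.0298 with the block, and 0.0810 when the block was kept and replicates 3 and 4 were summed). The related Bnip3 averaged 198 ± 44.9 CPM with pEtn and 212 ± 45.5 CPM in RPMI (SD, n = 4 each).

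The collagen prolyl hydroxylases P4ha1 and P4ha2 averaged 71.0 ± 7.58 and 8.75 ± 4.96 CPM with pEtn, against 83.3 ± 16.5 and 10.4 ± 4.05 CPM in RPMI (SD, n = 4 each). Ankrd37, an ankyrin repeat gene, averaged 4.66 ± 1.70 CPM with pEtn and 6.15 ± 1.40 CPM in RPMI. The mitochondrial protein gene Higd1a averaged 83.5 ± 10.4 CPM with pEtn and 80.0 ± 17.2 CPM in RPMI, and Ero1l, the oxidase of disulfide formation in the endoplasmic reticulum, 282 ± 115 CPM with pEtn and 258 ± 40.1 CPM in RPMI. None of these 5 or Bnip3 was called, with adjusted p-values from 0.349 to 0.836. Adm, the vasodilator adrenomedullin, had 0 counts in each pEtn library and 1 count in all RPMI libraries together, so it was left untested. Since 3 counts is the limit that a count of 0 allows, its level with pEtn was at most 0.0845 to 0.103 CPM per library, for counting error only.

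In 17 of the 34 tested, the difference had 1 sign in all 4 numbers, 10 of them higher with pEtn and 7 lower. Another 8, Pfkl, Tpi1, Pgk1, Pgam1, Slc16a3, Bnip3, Higd1a and Ero1l, were higher with pEtn in numbers 1 and 2 and lower in numbers 3 and 4, and Hif1a was the reverse. Ero1l had log2 differences of 0.54, 0.50, -0.50 and -0.33 within numbers 1 to 4, and Bnip3 of 0.37, 0.21, -0.58 and -0.37. The difference between numbers 1 and 2 and numbers 3 and 4 was not tested. Signs were not counted over all genes, so these counts do not set the members apart. Replicates 3 and 4 resembled each other in both media, with a chi-square per gene of 5.04 with pEtn and 11.2 in RPMI, against 51.1 to 107 for the other pairs of the same medium.

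The count of called members followed which libraries were used. With replicates 1 and 2 alone, edgeR called 0 of 34 members, beside 0.264% of all genes. By its unadjusted p, edgeR had 10 members under 0.05, beside 1870 of 12122 genes tested. With replicates 3 and 4 alone it called 25 of 34, 6 higher and 19 lower, beside 48.1% of all genes. The p-values of the fit on replicates 3 and 4 alone rest on the small spread between these resembling libraries. With replicates 3 and 4 summed in each medium, Hk1 (adjusted p = 0.0492) and Slc16a1 (adjusted p = 0.0188) were called, 2 of 34, beside 2.71% of all genes. With the replicate number as a block, edgeR called 8 of 34 members, or 23.5%, beside 32.3% of all genes. The 4 higher were Hk1, Aldoa, Aldoc and Bnip3l, and the 4 lower were Slc16a1, Vegfa, Ndrg1 and Egln3. With the block and replicates 3 and 4 summed, Bnip3l and Egln3 lost these calls. In that fit 6 of 34 members were called, beside 2329 of 11992 genes tested. The media did not overlap for 5 of the 34 members, Hk1, Aldoa, Slc16a1, Egln1 and Vegfa, beside 20.4% of all genes.

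**Figure D3:**
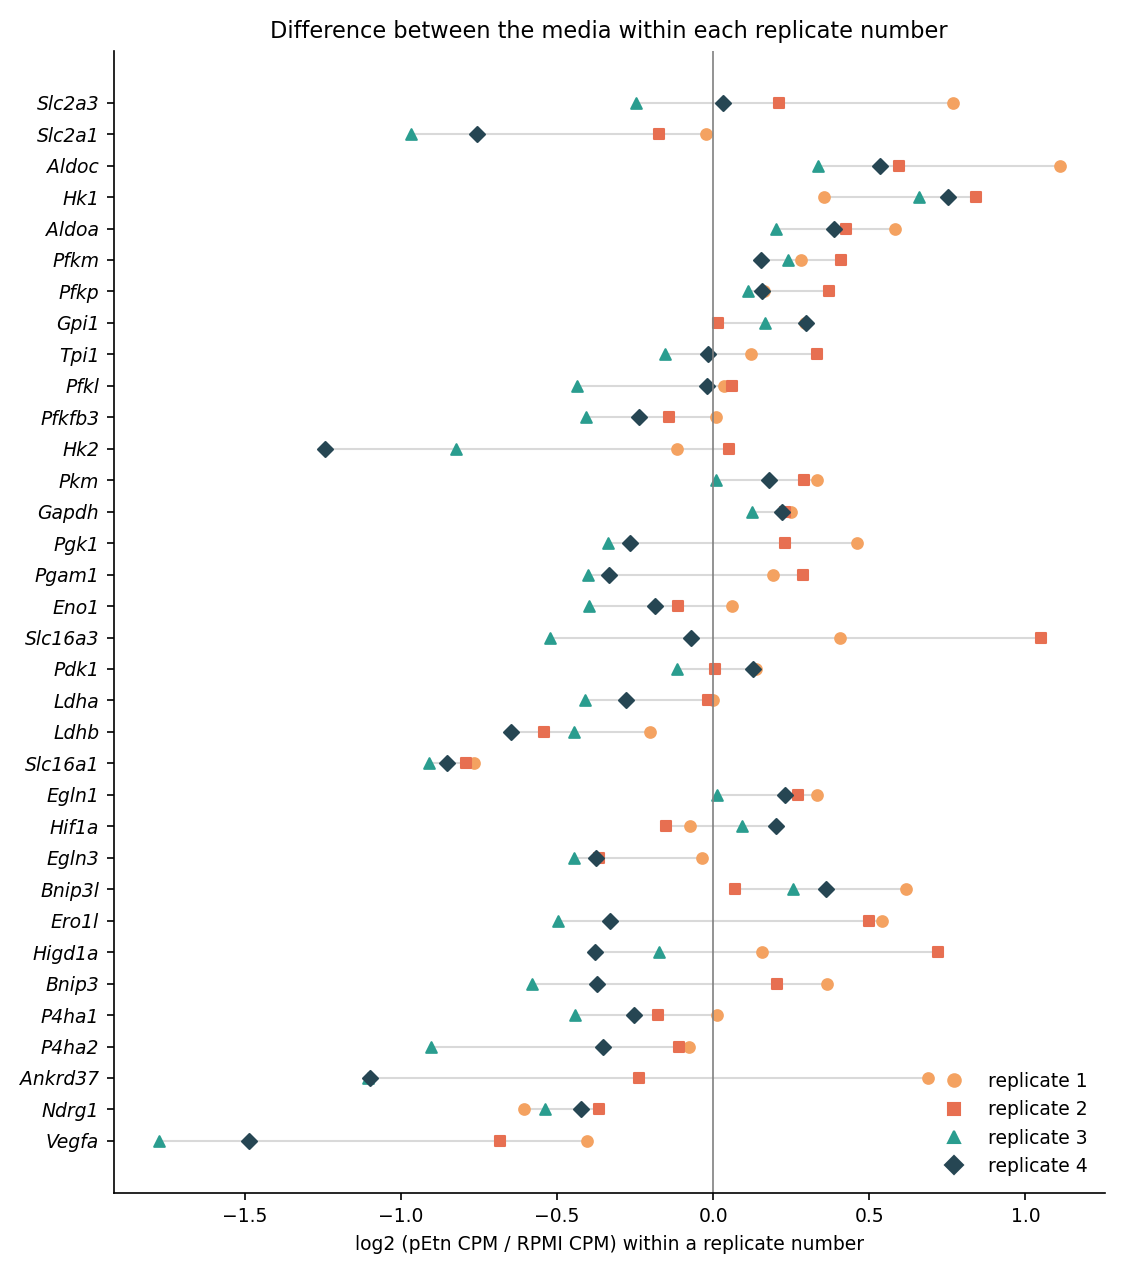
Log2 ratio of CPM, pEtn over RPMI, within each replicate number (points, 1 colour and shape per number) for the 34 tested members, ordered by role as in the plot of fold changes. Slc16a1 and Ndrg1 have narrow ranges below 0 and Hk1 and Aldoa lie above 0, whereas Pgk1, Ero1l and Bnip3 have numbers 1 and 2 above 0 and numbers 3 and 4 below it.

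Levels per length were compared between genes in TPM, counts divided by gene length and scaled to an equal sum in every library. Pkm was the most abundant member in both media, at 2793 ± 356 TPM with pEtn and 2400 ± 143 TPM in RPMI (SD, n = 4 each). Pgk1 stood at 2149 ± 571 TPM with pEtn and 2048 ± 38.5 TPM in RPMI, Ldha at 1889 ± 178 TPM with pEtn and 2116 ± 87.6 TPM in RPMI, and Aldoa at 1806 ± 323 TPM with pEtn and 1350 ± 132 TPM in RPMI. The levels of Pgk1 and Ldha lay within their spread of each other in both media. The 17 members that run from hexokinase to lactate dehydrogenase, Pfkfb3 included, together made up 1.42% ± 0.189 of all TPM with pEtn and 1.32% ± 0.0291 in RPMI (SD, n = 4 each), and the ranges overlapped.

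At the lower end stood Ldhb at 2.86 ± 0.937 TPM with pEtn and 3.82 ± 0.728 TPM in RPMI, and P4ha2 at 3.69 ± 2.12 TPM with pEtn and 4.38 ± 1.77 TPM in RPMI (SD, n = 4 each). Vegfa was at 6.54 ± 1.67 TPM with pEtn and 13.6 ± 2.52 TPM in RPMI (SD, n = 4 each), below most other hypoxia targets, such as Bnip3 at 229 ± 50.5 TPM with pEtn and 243 ± 49.0 TPM in RPMI. Hif1a was at 196 ± 20.1 TPM with pEtn and 193 ± 21.2 TPM in RPMI, above Egln1 at 88.0 ± 4.30 TPM with pEtn and 75.6 ± 4.64 TPM in RPMI. Egln3 was at 35.6 ± 6.11 TPM with pEtn and 43.4 ± 3.71 TPM in RPMI (SD, n = 4 each).

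**Figure D4:**
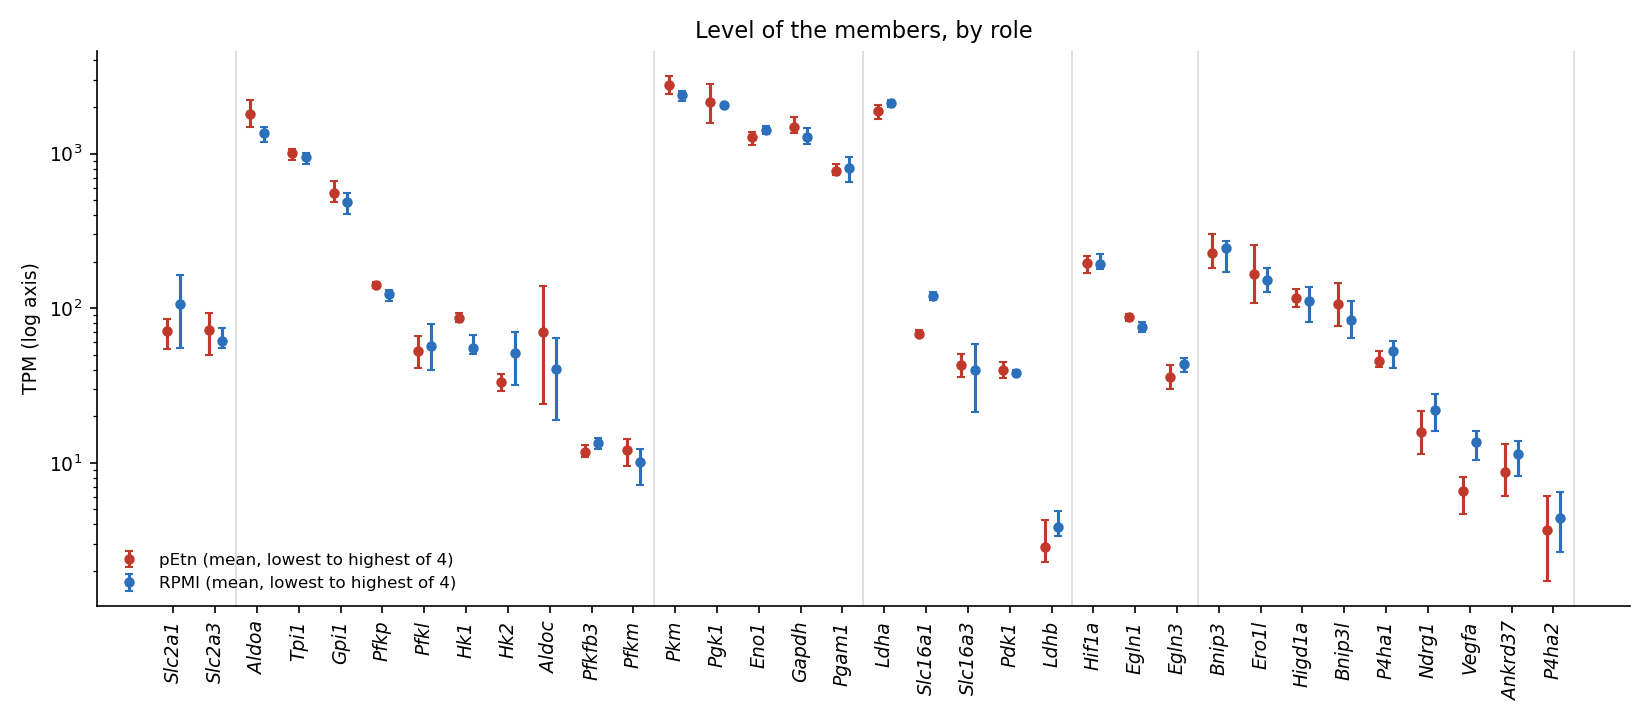
Level in TPM (log axis) of the 34 tested members by role, with points for the mean and bars from the lowest to the highest of 4 libraries, pEtn in red on the left and RPMI in blue on the right of each pair. Pkm is highest, at 2793 TPM with pEtn and 2400 TPM in RPMI, and Ldhb lowest, at 2.86 TPM with pEtn and 3.82 TPM in RPMI.

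Hk1 made up 74.5%, 71.8%, 68.5% and 74.1% of the TPM of Hk1 and Hk2 in pEtn replicates 1 to 4, against 67.8%, 59.5%, 43.8% and 41.8% in RPMI replicates 1 to 4. The media did not overlap, and RPMI replicates 3 and 4 were the lowest. The mean share was 72.2% ± 2.76 with pEtn and 53.2% ± 12.6 in RPMI (SD, n = 4 each). Slc16a1 made up 64.8%, 62.0%, 62.3% and 57.4% of the TPM of Slc16a1 and Slc16a3 in pEtn replicates 1 to 4, against 80.6%, 85.4%, 68.3% and 69.8% in RPMI replicates 1 to 4. These too were without overlap, with means of 61.6% ± 3.11 with pEtn and 76.02% ± 8.30 in RPMI (SD, n = 4 each). Since Hk1 and Slc16a1 are in the shares, they add no evidence beyond those calls, and no test was made.

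For glucose uptake, the share of Slc2a3 in the pair with Slc2a1 was 50.1% ± 12.4 with pEtn and 39.3% ± 13.0 in RPMI (SD, n = 4 each), and the ranges overlapped, although it was higher with pEtn within each number. Ldha supplied 99.85% ± 0.0438 of lactate dehydrogenase TPM with pEtn and 99.82% ± 0.0420 in RPMI. Aldoa supplied 96.6% ± 2.08 of the aldolase pair with pEtn and 97.2% ± 1.45 in RPMI, and Pfkp 68.8% ± 3.83 of the phosphofructokinase subunits with pEtn and 65.2% ± 5.42 in RPMI (SD, n = 4 each).

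**Figure D5:**
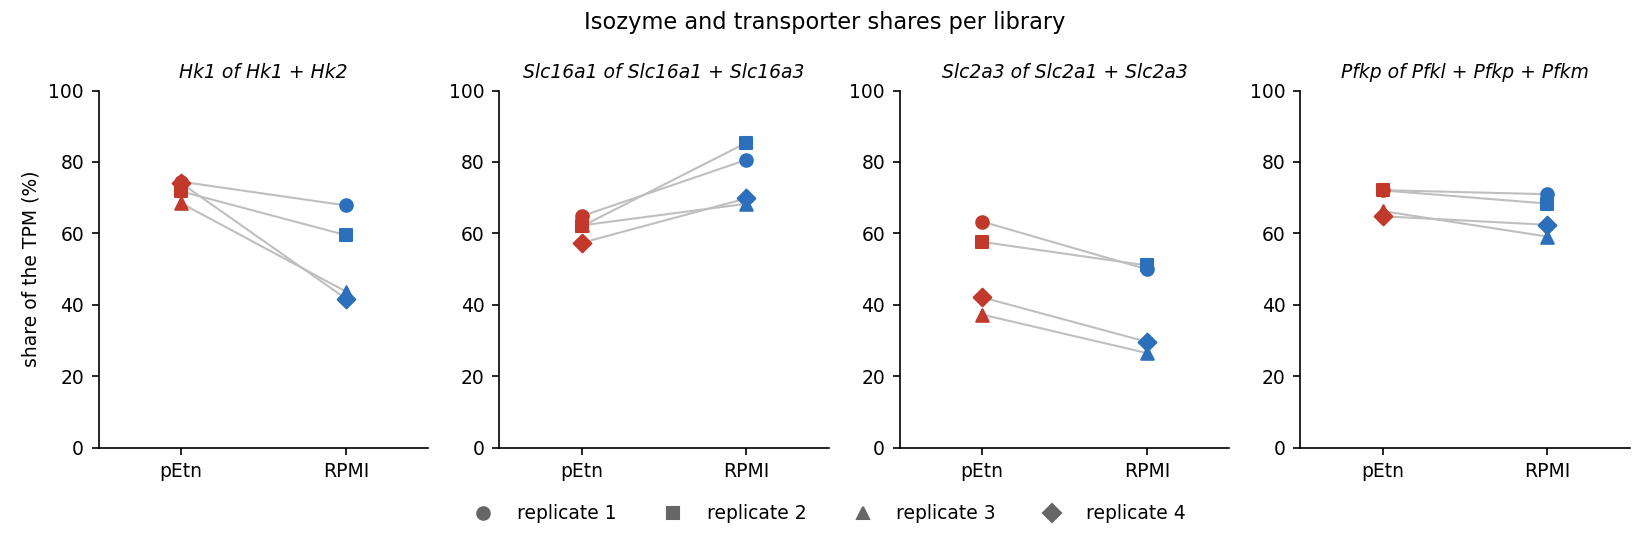
Share of the summed TPM (%) taken by 1 gene of a pair or trio of related members in each library, with pEtn on the left and RPMI on the right and lines joining equal replicate numbers. The share of Hk1 is 68.5% to 74.5% with pEtn and 41.8% to 67.8% in RPMI, and that of Slc16a1 is 57.4% to 64.8% with pEtn and 68.3% to 85.4% in RPMI.

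Further genes of the same pathways were read from 6 lists of 101 genes, of which 85 were tested. Of these, 10 were called, 3 higher and 7 lower (11.8%, beside 12.8% of all genes), and 30 with the block, beside 32.3% of all genes. Among 17 other glycolysis genes, Adpgk, a glucokinase that uses ADP, was the 1 called, at 17.3 ± 0.821 CPM with pEtn and 32.2 ± 0.959 CPM in RPMI (SD, n = 4 each, log2 fold change -0.89, edgeR adjusted p = 0.000832). Together with Hk1 and Hk2 it phosphorylates glucose, and it differed from Hk1 in direction. Of the 17 other glycolysis genes, 7 were under 0.05 by edgeR's unadjusted p, beside 3375 of 11862 genes. DESeq2 called 2 of the 21 it tested on this list, beside 2255 of 17625 genes. With the block, edgeR called 6 of the 17, 2 higher and 4 lower, beside 32.3% of all genes. No gene of 12 on pyruvate and lactate was called by edgeR, where 3 were under 0.05 by unadjusted p, beside 3375 of 11862 genes. DESeq2 called 2 of the 14 it tested, beside 2255 of 17625 genes. The limma fit called 1 of 12, beside 1476 of 11862 genes. With the block, edgeR called 5 of the 12, beside 32.3% of all genes.

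Among 13 other genes of oxygen sensing, 2 rose and none was called lower without the block, 15.4% beside 12.8% of all genes. With the block, 2 further genes were called lower, the ubiquitin ligase Siah2 at 28.8 ± 2.59 CPM with pEtn and 41.9 ± 10.7 CPM in RPMI (SD, n = 4 each, edgeR adjusted p = 0.0401, and 0.0730 without) and the ligase subunit Eloc at 59.4 ± 3.55 CPM with pEtn and 80.8 ± 16.9 CPM in RPMI (SD, n = 4 each, edgeR adjusted p = 0.0262, and 0.0746 without). Neither passed when the block was kept and replicates 3 and 4 were summed (adjusted p = 0.122 for Siah2 and 0.0987 for Eloc), and both passed without the block when RPMI replicate 1 was left out (adjusted p = 0.0180 for Siah2 and 0.0229 for Eloc). DESeq2 called 4 of the 14 genes it tested on this list, these and the 2 that rose, beside 2255 of 17625 genes. With the block, edgeR called 32.3% of all genes. Arnt, the stable partner of Hif1a, averaged 47.5 ± 5.89 CPM with pEtn and 35.5 ± 1.78 CPM in RPMI (SD, n = 4 each, log2 fold change 0.42, adjusted p = 0.0331). Os9, a lectin of protein quality control that has also been linked to Hif1a breakdown, averaged 212 ± 8.94 CPM with pEtn and 157 ± 20.4 CPM in RPMI (SD, n = 4 each, log2 fold change 0.43, adjusted p = 0.0246). Each lost the call in 6 of the 8 fits that left out 1 library, Arnt in all but those without pEtn replicate 2 or RPMI replicate 1 (adjusted p 0.0549 to 0.108) and Os9 in all but those without RPMI replicate 1 or 2 (adjusted p 0.0547 to 0.0799). Both also lost it with replicates 3 and 4 summed (adjusted p = 0.194 and 0.150).

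Of 25 other tested hypoxia targets, 1 rose and 5 fell, 24.0% beside 12.8% of all genes, with a median log2 fold change of -0.12 against 0.02 over all genes. With the block, 10 of the 25 were called, beside 32.3% of all genes. This list was chosen with earlier results of these data known, so its shares are no test of hypoxia targets. Tfrc, the transferrin receptor, fell by 1.38 on the log2 scale, to 289 ± 67.0 CPM with pEtn, against 750.2 ± 226 CPM in RPMI (SD, n = 4 each, edgeR adjusted p = 0.00665). Car12, a carbonic anhydrase of the cell surface, averaged 14.9 ± 4.68 CPM with pEtn and 37.3 ± 5.64 CPM in RPMI (adjusted p = 0.00487). The adenylate kinase Ak4 averaged 9.15 ± 0.8499 CPM with pEtn and 21.6 ± 6.52 CPM in RPMI (adjusted p = 0.00576). Cited2, which competes with Hif1a for a coactivator, averaged 22.7 ± 3.01 CPM with pEtn and 44.7 ± 5.98 CPM in RPMI (SD, n = 4 each, edgeR adjusted p = 0.00264). Angptl4, a lipase inhibitor, fell by 0.48 on the log2 scale (adjusted p = 0.0153, and 0.0939 with replicates 3 and 4 summed). The glycogen synthase Gys1 rose by 0.43 (adjusted p = 0.0376), a call lost in 7 of the 8 fits without 1 library, all but that without pEtn replicate 3 (adjusted p 0.0559 to 0.0992). Each of these genes answers to other signals as well as hypoxia.

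Of 6 glucose-responsive genes tied to the factor MondoA, none was called by edgeR, DESeq2 or limma, and none was under 0.05 by edgeR's unadjusted p. Txnip, which restrains glucose uptake, averaged 333 ± 105 CPM with pEtn and 209 ± 125 CPM in RPMI (SD, n = 4 each, edgeR adjusted p = 0.325, and 0.0383 with the block). Of 12 regulators of T cell glycolysis, edgeR called 1 without the block (8.33%, beside 12.8% of all genes). DESeq2 called 2 of the 12, beside 2255 of 17625 genes. With the block, edgeR called 4 of the 12, 1 higher and 3 lower, beside 32.3% of all genes. Myc, which drives glycolytic genes after activation, was the 1 called without the block. It averaged 167 ± 59.8 CPM with pEtn and 377 ± 151 CPM in RPMI (SD, n = 4 each, log2 fold change -1.17, edgeR adjusted p = 0.0438, and 5.3e-05 with the block). Its ranges overlapped, and without the block it lost the call in the fits without pEtn replicate 1, 2 or 4 or RPMI replicate 3 or 4 (adjusted p 0.0654 to 0.121) and with replicates 3 and 4 summed (adjusted p = 0.136).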

How the data were processed

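RNA of sorted cells was amplified for 15 cycles with a SmartSeq kit, per the labels' protocols. Per the submitters' processing notes, the build was GRCm39. The sources used here name no aligner, counter or annotation and no strand setting. The table deposited by the authors gives each library's total count per gene, which entered every main test. Its RPKM column, deposited by the authors, was not used, and the deposited TPM values gave levels between genes. A deposited column named CPM, treated as a signal because it equals CPM times a constant per library, entered no test.

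Of 17625 genes with a count, filterByExpr kept 11862. Medium was tested with edgeR 4.0.16 in R 4.3.3 (TMM, robust quasi-likelihood F test, Benjamini-Hochberg adjustment over all genes tested). Genes under an adjusted p of 0.05 were called, and SE values come from the F statistic. CPM are on library sizes scaled by TMM. The procedure was also run on simulated counts, drawn independently for each library. Those counts held neither the resemblance of replicates 3 and 4 nor the pairing by number, so they do not test the procedure on that structure. Alternatives used DESeq2 1.42.0, limma 3.58.1 on log2(TPM + 0.5), other filters and scaling, the replicate number as a block, replicates 3 and 4 summed, subsets of numbers and each library left out.

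The members, the further lists and the genes named were chosen with earlier results of these data known. Values in every library are given for called members and for Hif1a, Slc2a1, Hk2, Ldha and Pdk1. Slc2a3 is given in every library too, although it is in neither group. Aldoa, Aldoc, Slc16a3 and Ndrg1 were added after their values were seen. Of the further lists, up to 6 called genes each are named, and Txnip, Siah2 and Eloc were added likewise. Tigar, Elob and Eloc were matched by Ensembl ID.

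Deviations from the group means correlated between same-numbered libraries of the media at 0.566, 0.547, 0.441 and 0.451, against at most 0.406 between different numbers. The main fit had no block and did not pair libraries by number, while the blocked fits and the differences within numbers did. That pairing rests on the values and on the shared numbering, since no label explains it. The text gives blocked values for named members and marker genes whose call they change. Replicates 3 and 4 were kept as separate libraries, as labelled. Counts without molecular identifiers give limits for counting error only.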

Additional observations from a re-analysis of the deposited data

Results flagged for a closer look

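Of 68 groups of 4 libraries looked at (34 members in each medium), 3 held a library whose gap to its neighbour, divided by the group's range, was above the 95% critical value of Dixon's test for 4 values. Chance flags about 1 in 20 groups. Hk1 in RPMI had its highest library, replicate 1 at 213 CPM, at a ratio of 0.94, and its call held without that library (edgeR adjusted p = 0.00324). Ldhb in pEtn had its highest library, replicate 1 at 2.51 CPM, at a ratio of 0.882. Bnip3 in RPMI had its lowest library, replicate 1 at 144 CPM, at a ratio of 0.892.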

How the results depend on the processing

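Called members numbered 3 of 34 with pEtn against RPMI, 3 or 4 without any 1 library, 8 with the replicate number as a block, 6 with the block and replicates 3 and 4 summed, 0 with replicates 1 and 2 only and 25 with replicates 3 and 4 only. Over all genes the 1516 calls became 3830 with the block, 325 with replicates 3 and 4 summed, 2329 with both, 32 and 5675 with the subsets in the same order, and 796 to 1638 without any 1 library. Hk1, Slc16a1 and Vegfa lost their calls with replicates 1 and 2 only (adjusted p = 0.198, 0.0875 and 0.246), where the fit had fewer libraries, and Vegfa with replicates 3 and 4 summed. All 11 called genes named from the further lists and markers lost their calls with replicates 1 and 2 only (adjusted p 0.0664 to 0.419), and Angptl4, Arnt, Gys1, Myc, Os9 and Zbtb7b with replicates 3 and 4 summed (0.0939 to 0.194). Without a filter on low counts, Gys1 and Myc lost theirs (0.0581 and 0.107). Both DESeq2 and the fit without pEtn replicate 3 added Aldoa.

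Log2 fold changes that changed sign, all of members not called with all libraries, were, with replicates 1 and 2 only, Ankrd37 0.21, Bnip3 0.26, Hif1a -0.13, Pfkl 0.035 and Pgam1 0.23, and with replicates 3 and 4 only, Ero1l -0.42, Higd1a -0.29, Pgk1 -0.31, Slc16a3 -0.30, Slc2a3 -0.11 and Tpi1 -0.092. Of these, Ero1l, Higd1a, Pgk1 and Slc16a3 were called lower with replicates 3 and 4 only (adjusted p = 0.000131, 0.0134, 0.00139 and 0.0172). With replicates 3 and 4 summed, Bnip3 was at 0.025, Hif1a at -0.026 and Pgam1 at 0.020, and with the block as well at 0.036, -0.025 and 0.039. Without any 1 library, the ranges that crossed 0 were Ero1l -0.17 to 0.28, Hif1a -0.033 to 0.091, Higd1a -0.069 to 0.19, Pdk1 -0.015 to 0.088, Pfkl -0.27 to 0.078, Pgam1 -0.18 to 0.0061, Pgk1 -0.087 to 0.18 and Slc16a3 -0.12 to 0.36. The cause was not tested. Under the alternatives that kept all numbers or subsets of them, 291 fold changes of members kept direction and call, 27 kept direction and gained a call, 4 kept direction and lost it, and 17 changed sign. Without 1 library, 257 kept both, 1 gained a call and 14 changed sign. Depth limits most the members with the fewest counts over all libraries, Adm with 1, Ldhb with 517 and Ankrd37 with 1392.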
